A study of Mus musculus with 47 samples.

Results

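The 10 genes described here encode the proteins that hold the mammalian cell cycle before S phase or let it pass: 4 inhibitors of cyclin-dependent kinases (Cdkn1a, Cdkn1b, Cdkn1c and Cdkn2c), the 3 pocket proteins of the retinoblastoma family (Rb1, Rbl1 and Rbl2) and the 3 D-type cyclins (Ccnd1, Ccnd2 and Ccnd3). They were taken by symbol, with the transcripts of each gene summed, out of 45650 genes in the deposited RNA-seq tables, and they are followed through 16 groups and 47 libraries of C2C12 cells, a mouse skeletal muscle myoblast line that leaves the cell cycle and fuses into multinucleated myotubes when serum is withdrawn. The study raised the dose of the myogenic transcription factor MyoD1, or of one of the cell-surface proteins Cdh23 and Mcam, with a doxycycline (dox) inducible transgene and asked how differentiation changed. The MyoD1 line held a dox-inducible, Halo-tagged MyoD1 beside its endogenous gene, the other lines an inducible Cdh23 or Mcam, and the untreated groups, given vehicle, carried the same transgene as the treated ones.

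The MyoD1 line, a polyclonal pool in which only part of the cells turn the transgene on, was profiled with and without dox in growth medium (0 h of differentiation, with 24 h of dox or vehicle), and after 24 h, 48 h and 120 h in low-serum differentiation medium, with dox or vehicle for the whole of that time. At 120 h there were whole cultures and also a myoblast-enriched and a myotube-enriched fraction, split by light trypsin treatment and a 40 µm strainer. The Cdh23 line and the Mcam line were profiled at 48 h with and without dox. Each group held 3 libraries, except the dox-treated myoblast-enriched fraction with 2. The labels call them biological replicates without saying that they were separate cultures, so each p-value measures the spread between these libraries.

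Growth factor signals raise the D cyclins, which bind CDK4 or CDK6 and start the phosphorylation of the pocket proteins. An unphosphorylated pocket protein holds E2F transcription factors in check, so the genes for DNA replication stay low until the kinases act. The INK4 protein encoded by Cdkn2c (p18) binds CDK4 and CDK6 directly, whereas the Cip/Kip proteins encoded by Cdkn1a (p21), Cdkn1b (p27) and Cdkn1c (p57) bind cyclin-CDK complexes and chiefly block CDK2. In muscle, p21 and p57 are known to be needed together for myoblasts to leave the cycle, the retinoblastoma protein for keeping myotube nuclei out of it, and Ccnd3 is the D cyclin known to build up in myotubes while Ccnd1 is lost.

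Levels are given as CPM (salmon's estimated counts relative to the library's total, with TMM scaling over all 47 libraries), values after ± are SDs over the libraries of a group, and changes are log2 fold changes ± SE from edgeR with an adjusted p over all genes tested in that comparison; a change was called at an adjusted p under 0.05. The libraries held 15066338 to 50950674 counts. Those of 0 h and 24 h, those of 48 h and 120 h whole cultures, and those of the other lines and the fractions came in 3 separate tables. A batch label is given for all but the 0 h and 24 h libraries, so between 24 h and 48 h batch and time cannot be told apart. Transcripts mapped to Myod1 did not show the induction: its mean was 178 CPM without and 188 CPM with dox at 0 h, and with dox it was lower at 24 h (135 and 117), 48 h (388 and 306) and 120 h (280.0 and 92.0). Whether the transgene's own sequence was in the reference is not stated, so groups are named here by their labels. In the line labelled Cdh23, Cdh23 itself was at 389 CPM without dox and 486 with it, against 9.36 in the untreated MyoD1 line at 48 h, so the untreated cells of that line were already high. In the line labelled Mcam, Mcam was at 18.1 CPM without and 71.3 with dox. Cdh15, Des and Myod1, which mark muscle cells, were present in every library, while the summed levels of 3 adipocyte, 3 osteoblast and 3 leukocyte markers stayed at or under 0.2, 0.886 and 6.17 CPM. One library stands apart: in replicate 1 of the dox-treated myotube-enriched fraction, mRNAs over 4500 nt were lower relative to those under 2000 nt by 1.25 log2 units against the rest of its group.

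With dox in the MyoD1 line, 5 of the 10 genes were called at 0 h (37.8% of all tested genes were), all 10 at 24 h (62.8%), 8 at 48 h (56.6%) and 9 in whole cultures at 120 h (45.2%). At 48 h 1 of them was higher (27.9%) and 7 were lower (28.7%). In the other lines at 48 h, 10 were called with dox in the Cdh23 line (63.8%), 2 higher (31.3%) and 8 lower (32.4%), and 9 in the Mcam line (49%), 2 higher (24.2%) and 7 lower (24.8%). The comparisons between successive times without dox called 9 genes from 0 to 24 h (74.3%), 8 from 24 to 48 h (76.8%) and 8 from 48 to 120 h (67.1%), and those with dox called 9 (68%), 8 (72.4%) and 9 (73.5%). A single fit of all 16 groups with 1 shared estimate of the spread called fewer of the 10 with dox in the MyoD1 line, 1 at 0 h, 5 at 24 h, 5 at 48 h and 4 at 120 h. Of all genes it called 829, 4782, 4803 and 6269 at these times, against 5122, 8848, 7845 and 6154 in the separate fits. The dox calls lost there were Cdkn1a, Cdkn2c, Rb1 and Ccnd3 at 0 h and Cdkn1a, Cdkn1b, Cdkn2c, Rb1 and Rbl2 at 24 h. At 48 h they were Cdkn1b, Ccnd1 and Ccnd3, and at 120 h Cdkn1b, Cdkn1c, Rb1, Rbl2 and Ccnd1. The Cdh23 line lost Cdkn1b and Rbl2 there and the Mcam line Rbl2. With 37.8 to 63.8% of all genes called in the 6 dox comparisons above, a count among 10 genes says little by itself. The directions and sizes of the changes are what follows. The time comparisons and the dox comparisons of the MyoD1 line share groups, so their values stand side by side and are not independent.

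**Figure D1:**
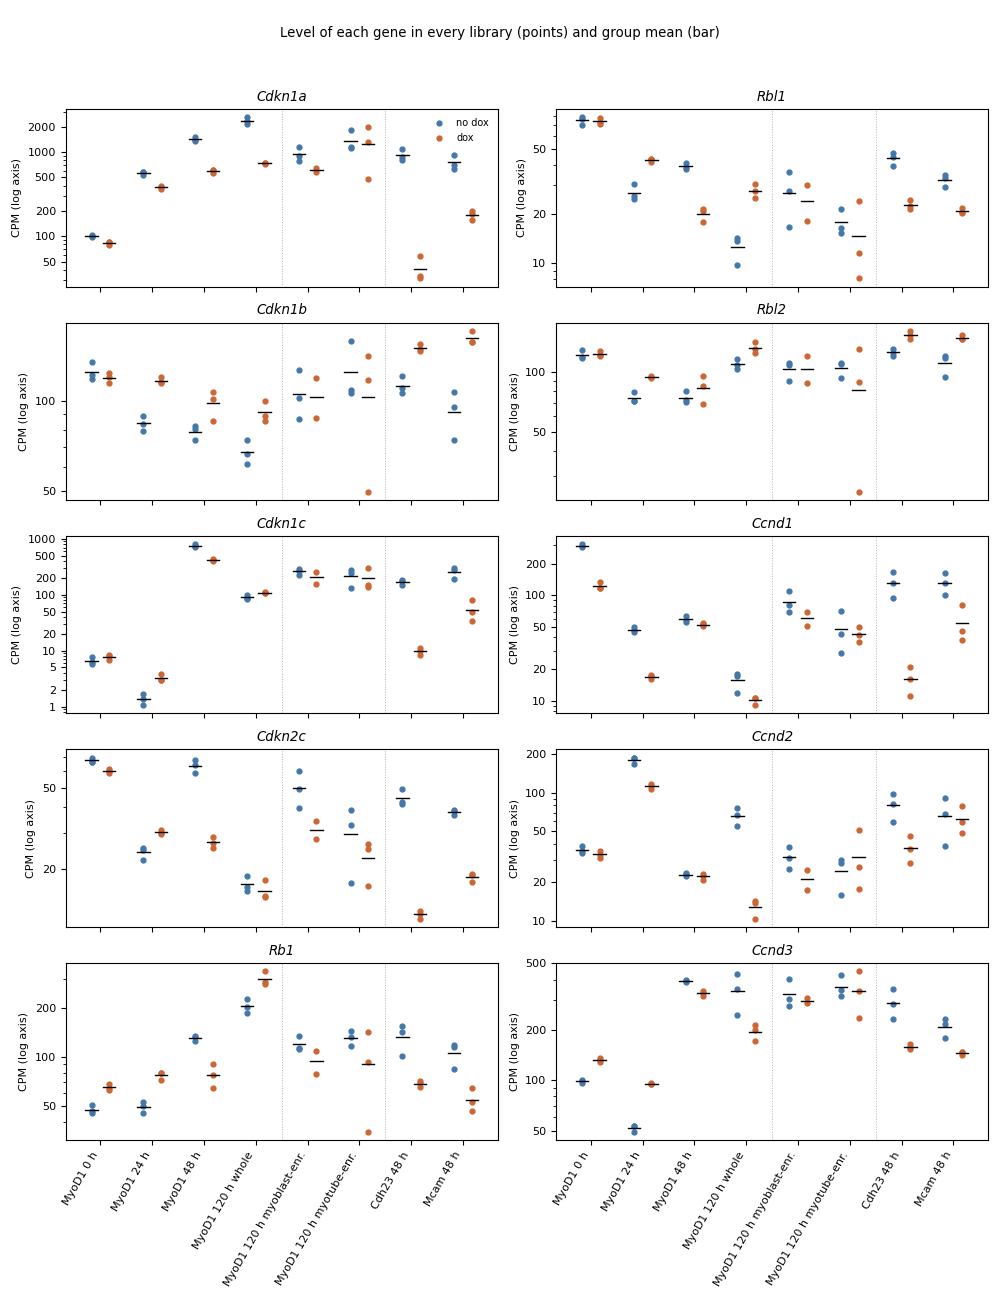
Level of each of the 10 genes in CPM (log axis) in every library (points, blue without and orange with dox) and the group mean (bar), by line, time and fraction. Cdkn1c spans from 1.37 CPM at 24 h without dox to 753 CPM at 48 h without dox, whereas the group means of Cdkn1b stay between 67.4 and 162 CPM.

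In unfractionated cultures Cdkn1a rose step by step through differentiation without dox. There dox lowered it at every time in the MyoD1 line, and it did so in both other lines. The gene (ENSMUSG00000023067, GRCm38 chr17:29090976-29100727, plus strand) is the classic target of p53 and is also known to be induced by MyoD1 in differentiating muscle. The bases before its main start are shown here because this is the member with the largest span of levels after Cdkn1c. They run from chr17:29093519-29093768 on the plus strand and end at the base before the start of Cdkn1a-201 (RefSeq, GRCm38.p6), in lower case since none of the motifs searched was found in them.
Cdkn1a: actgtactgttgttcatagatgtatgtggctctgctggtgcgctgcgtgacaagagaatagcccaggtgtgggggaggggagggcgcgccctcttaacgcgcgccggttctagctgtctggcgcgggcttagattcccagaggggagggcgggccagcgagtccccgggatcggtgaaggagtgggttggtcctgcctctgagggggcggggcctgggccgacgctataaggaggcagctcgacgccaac

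Without dox, Cdkn1a was at 100.3, 103 and 98.4 CPM in the 3 libraries of 0 h and at 533, 574 and 584 at 24 h. It was at 1520, 1390 and 1337 CPM at 48 h and at 2581, 2334 and 2183 in whole cultures at 120 h. No library of one time overlapped those of the next, and the steps were 2.52 ± 0.06 (adjusted p = 5.3e-13) from 0 to 24 h, 1.33 ± 0.07 (adjusted p = 9.65e-10) from 24 to 48 h and 0.76 ± 0.10 (adjusted p = 0.000115) from 48 to 120 h. In the untreated 120 h fractions, in another table, the means were 944 CPM (myoblast-enriched) and 1367 CPM (myotube-enriched). These were not above the 48 h mean of 1416 CPM, so the last step was seen in whole cultures only. In unfractionated cultures with dox the rise was smaller. The 0 h libraries held 86.2, 85.6 and 78.3 CPM and the 24 h libraries 392, 366 and 382. The 48 h libraries held 564, 614 and 611 CPM and the 120 h libraries 736, 716 and 745. Every dox-treated library was thus below every untreated library of its time, and the dox effect was -0.26 ± 0.06 (adjusted p = 0.00271) at 0 h, -0.59 ± 0.06 (adjusted p = 3.09e-06) at 24 h, -1.26 ± 0.08 (adjusted p = 2.82e-07) at 48 h and -1.70 ± 0.09 (adjusted p = 1.6e-06) at 120 h. The fall was deeper at 24 h than at 0 h (difference of the dox effects -0.38 log2 units, adjusted p = 0.00115) and deeper at 120 h than at 48 h (-0.44, adjusted p = 0.00891). In the fit of all groups the dox effects at 0 h and 24 h and both of these differences missed the threshold (adjusted p = 0.667, 0.0691, 0.748 and 0.455).

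The lowest levels of Cdkn1a in the series were in the dox-treated Cdh23 line, below those of cycling myoblasts in growth medium. There the libraries held 57.5, 31.5 and 33.7 CPM, against 803, 862 and 1073 without dox, a change of -4.48 ± 0.28 (adjusted p = 1.39e-05). In the Mcam line the values were 199, 154 and 183 CPM with dox and 635, 705 and 932 without (-2.05 ± 0.17, adjusted p = 0.000206). The groups of each line stood far apart, and the fall in the Cdh23 line was deeper than that in the Mcam line (difference -2.41 log2 units, adjusted p = 0.0012). Between the highest group mean (2366 ± 201 CPM, 120 h whole culture without dox) and the lowest (40.9 ± 14.4, Cdh23 line with dox) lay a 57.9-fold range.

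Cdkn1c was the member whose level moved most: it was almost silent at 24 h, was next to Cdkn1a the most abundant of the 4 CDK inhibitors per length at 48 h, and was lower again at 120 h. Cdkn1c (ENSMUSG00000037664, GRCm38 chr7:143458339-143461050, minus strand) encodes p57 and is an imprinted gene expressed mainly from the maternal copy. Its untreated values were 6.21, 5.85 and 7.73 CPM at 0 h and 1.06, 1.70 and 1.35 at 24 h. They were 804, 741 and 715 CPM at 48 h and 85.4, 100.1 and 85.9 at 120 h. The fall from 0 to 24 h was -2.22 ± 0.21 (adjusted p = 2.87e-07), the rise to 48 h 9.09 ± 0.12 (adjusted p = 9.99e-16) (across the 2 tables and the batch label) and the fall from 48 to 120 h, within 1 table, -3.04 ± 0.10 (adjusted p = 1.81e-07). The 48 h mean was 549.97 times the 24 h mean, the widest range of the 10 genes. In the fractions at 120 h, which are in another table than the whole cultures, Cdkn1c lay between 135 to 274 CPM in untreated myotube-enriched and 226 to 292 CPM in untreated myoblast-enriched libraries.

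The dox effect on Cdkn1c changed its direction with time. At 24 h the dox-treated libraries were higher (2.98, 2.96 and 3.88 CPM, 1.23 ± 0.21, adjusted p = 0.000289), at levels close to none. At 48 h they were lower (407, 432 and 424 CPM, -0.85 ± 0.07, adjusted p = 2.01e-06), with no overlap. At 120 h they were slightly higher (112, 107 and 108 CPM, 0.26 ± 0.09, adjusted p = 0.0444), a call that was lost with DESeq2 and when any 1 library except untreated replicate 2 was left out (adjusted p = 0.0803 to 0.137). The difference between the 120 h and the 48 h effect was 1.11 log2 units (adjusted p = 5.06e-06). Dox in the Cdh23 line brought Cdkn1c from 152, 183 and 177 CPM to 8.47, 9.99 and 10.9, and in the Mcam line from 191, 272 and 305 to 33.4, 48.8 and 79.3. Both falls passed the test (-4.12 ± 0.13, adjusted p = 4.56e-06 and -2.21 ± 0.31, adjusted p = 0.00134), and that of the Cdh23 line was deeper (difference -1.89 log2 units, adjusted p = 0.0087). With dox the Cdh23 line was thus near the level of growing MyoD1-line cells, 9.80 against 6.60 CPM, in separately quantified tables.

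Cdkn1b moved against Cdkn1a. Cdkn1b (ENSMUSG00000003031, GRCm38 chr6:134920401-134925513, plus strand) encodes p27, whose amount is known to be set largely by protein breakdown, and its mRNA varied little in CPM: the highest group mean was only 2.40 times the lowest. Without dox it was at 118, 122 and 134 CPM at 0 h, 83.9, 79.1 and 88.8 at 24 h, 73.8, 82.4 and 80.2 at 48 h and 73.8, 61.7 and 66.6 at 120 h. With dox it was at 114, 119.8 and 124 CPM at 0 h, 116, 114 and 119.7 at 24 h, 107, 101 and 85.8 at 48 h and 99.7, 88.9 and 85.7 at 120 h. The 0 h groups overlapped (adjusted p = 0.525), and from 24 h on every treated library exceeded the untreated ones of its time (0.45 ± 0.06, adjusted p = 2.1e-05 at 24 h, 0.30 ± 0.08, adjusted p = 0.0113 at 48 h, 0.43 ± 0.10, adjusted p = 0.00829 at 120 h). Cdkn1b went in the Cdh23 line from 110.0, 106 and 121 to 154, 149 and 147 CPM with dox (0.42 ± 0.09, adjusted p = 0.00452), and in the Mcam line from 107, 95 and 74 to 157, 171 and 156 (0.85 ± 0.14, adjusted p = 0.00238). In the MyoD1 line the call at 48 h was lost without untreated replicate 1 (adjusted p = 0.0643) and that at 120 h without untreated replicate 2 (adjusted p = 0.0513). Fitted with all groups, Cdkn1b was called with dox in the Mcam line only (adjusted p = 0.109, 0.267 and 0.0799 at 24 h, 48 h and 120 h and 0.0694 in the Cdh23 line). Cdkn1b was the only CDK inhibitor of the 4 that was higher with dox in either of these lines.

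**Figure D2:**
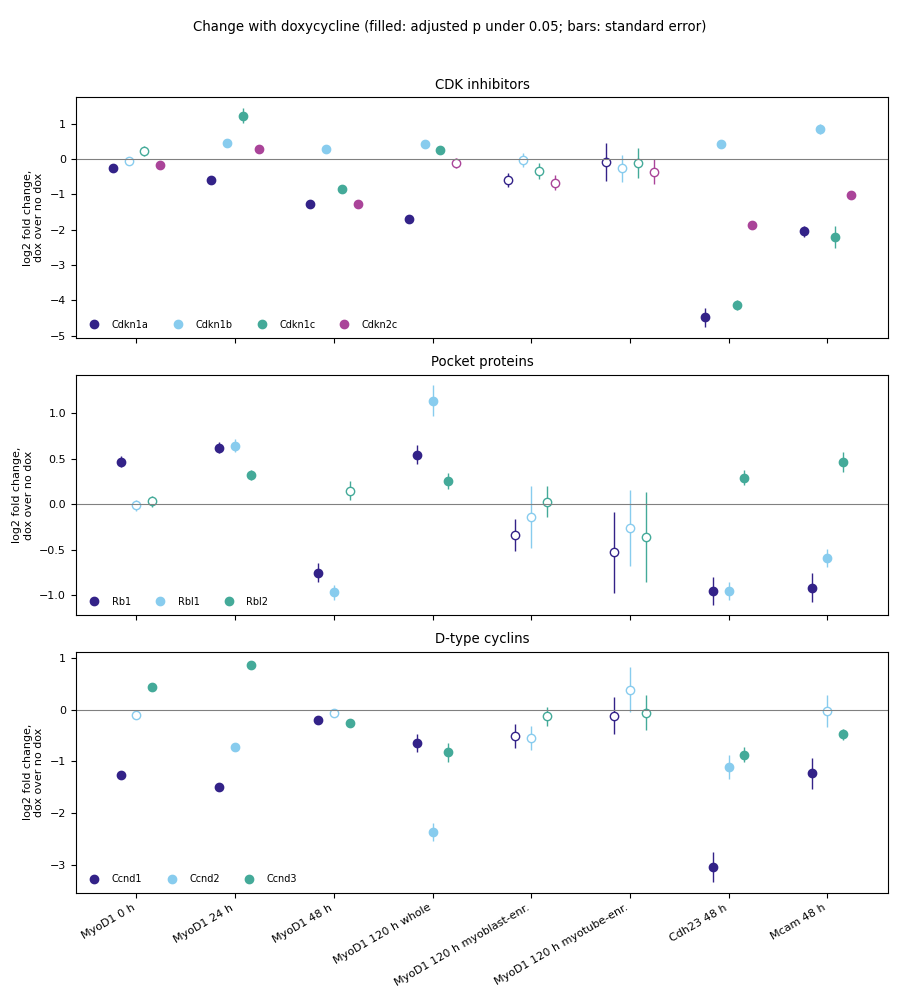
Log2 fold change with dox over no dox (points, with SE) of each gene in the 8 dox comparisons, in panels for CDK inhibitors, pocket proteins and D cyclins; filled points passed an adjusted p under 0.05. Cdkn1a lies below 0 in all comparisons where it was called, down to -4.48 in the Cdh23 line, and the points of both fractions are open throughout.

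Cdkn2c counts fell with dox at 48 h in all 3 lines, and the fall came from the longer of its 2 mRNAs. Cdkn2c (ENSMUSG00000028551, GRCm38 chr4:109660876-109667189, minus strand) is known to be read from an upstream start, which gives a longer mRNA (Cdkn2c-202, 2471 nt), and from a downstream start, which gives a shorter one (Cdkn2c-201, 1106 nt). Both hold the same coding exons and encode the same p18 protein, and the longer mRNA is known to be the one of cycling cells. The bases before the downstream start, chr4:109665373-109665609 on the minus strand (RefSeq, GRCm38.p6, the stretch outside annotated exons), are shown because the share of the mRNA that starts there is what changed.
Cdkn2c downstream start: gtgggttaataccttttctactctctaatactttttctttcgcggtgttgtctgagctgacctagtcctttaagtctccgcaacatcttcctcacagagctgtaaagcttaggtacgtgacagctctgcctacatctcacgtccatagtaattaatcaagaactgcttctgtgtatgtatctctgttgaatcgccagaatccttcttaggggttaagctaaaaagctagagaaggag

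For the whole gene, the values without dox were 66.4, 69.9 and 66.9 CPM at 0 h, 25.5, 22.3 and 24.9 at 24 h, 59.1, 64.6 and 68.1 at 48 h and 18.7, 16.5 and 15.8 at 120 h. It fell, rose again and fell again, with steps of -1.45 ± 0.07 (adjusted p = 1.69e-10) from 0 to 24 h, 1.41 ± 0.08 (adjusted p = 1.38e-09) from 24 to 48 h and -1.90 ± 0.11 (adjusted p = 1.11e-06) from 48 to 120 h. With dox the return at 48 h was missing: the libraries were at 30.2, 30.9 and 29.8 CPM at 24 h and at 26.9, 25.6 and 28.7 at 48 h. At 0 h the treated libraries were slightly lower (59.9, 58.5 and 61.2 CPM, -0.17 ± 0.06, adjusted p = 0.0336), a call lost without treated replicate 2 or any 1 untreated replicate (adjusted p = 0.0684 to 0.14), and at 24 h they were slightly higher (0.30 ± 0.07, adjusted p = 0.00178). The dox effect was -1.26 ± 0.09 (adjusted p = 6.47e-07) at 48 h, and -0.11 ± 0.14 (adjusted p = 0.54) at 120 h, where both groups were low and overlapped. It was -1.88 ± 0.10 (adjusted p = 9.26e-06) in the Cdh23 line, from 41.7, 42.6 and 49 to 11.6, 12.6 and 12.2 CPM, and -1.01 ± 0.09 (adjusted p = 0.000255) in the Mcam line, from 38.9, 36.7 and 38.6 to 18.9, 17.5 and 18.9 CPM. The fall in the Cdh23 line was deeper than that in the Mcam line (difference -0.85 log2 units, adjusted p = 0.00158).

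By transcript, the longer mRNA carried these changes. In the untreated MyoD1 line at 48 h, Cdkn2c-202 was at 47, 52.3 and 55.8 CPM (here without TMM scaling, as for all transcript values) and with dox at 18.3, 15.4 and 17.2. The shorter Cdkn2c-201 was at 6.52, 6.20 and 7.52 CPM without and 9.24, 9.51 and 11.2 with dox. The longer mRNA was thus lower in every treated library while the shorter one was higher in every treated library, and the shorter one's share went from 11.6% to 37.1%. The same share went from 22.2% to 70.5% in the Cdh23 line and from 20.5% to 66.5% in the Mcam line, with group means of the longer mRNA of 33.5 and 4.33 CPM in the first and 29.7 and 7.14 in the second. Per length, in TPM, the gene's mean went from 48.1 to 27.4 with dox in the MyoD1 line, from 46.1 to 24.6 in the Cdh23 line and from 40.9 to 35.1 in the Mcam line. TPM carry no TMM scaling, and the median log2 ratio of all genes with dox was higher in TPM than in CPM by 0.08 in the MyoD1 line at 48 h, 0.42 in the Cdh23 and 0.29 in the Mcam line. Relative to these shifts the log2 ratio of Cdkn2c in TPM was -0.89, -1.33 and -0.51, a smaller fall than in CPM in each line. The small effect at 0 h changed its sign, from 58.4 to 60.7 TPM, and was -0.12 relative to the shift of 0.18 of all genes there. From 48 to 120 h without dox the mean went from 48.1 to 26.4 TPM (-1.09 relative to a shift of 0.23). None of the 3 pairs of groups overlapped in share, and each gave a two-sided p of 0.1 in an exact permutation test, the smallest that 3 against 3 libraries allow.

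The share of the shorter mRNA moved by 71.6 points from 48 to 120 h without dox and by 41.6 with it, and by -14.1 to 16 over the 4 earlier steps. Beside these stand 25.5, 48.3 and 46 points with dox at 48 h in the MyoD1, Cdh23 and Mcam lines. Without dox the longer mRNA had group means of 63.3 CPM at 0 h, 17.3 at 24 h, 51.7 at 48 h and 2.55 at 120 h, and the shorter one 6.73, 6.01, 6.75 and 12.4. At 120 h the shorter mRNA made up 77.3, 89.3 and 82.7% of the gene's counts in the 3 untreated libraries, against 12.2, 10.6 and 11.9% at 48 h (exact permutation p = 0.1). Across all 16 groups the mean of the shorter mRNA stayed between 6.01 and 15.5 CPM, while that of the longer one ranged from 2.55 to 63.3. Salmon splits reads from shared exons between transcripts by a model, so these shares are estimates. From 48 to 120 h long mRNAs as a class moved up (median 0.47 for those over 4500 nt) and short ones down (median -0.60 for those under 2000 nt), whereas within Cdkn2c the shorter one gained. The part of this shift by length in the shares was not tested.

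**Figure D3:**
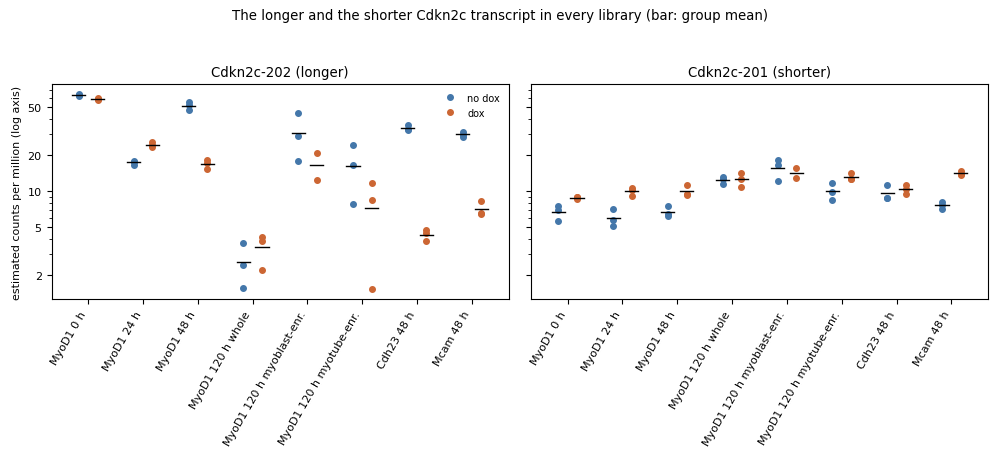
CPM without TMM scaling (log axis) of the longer Cdkn2c-202 and the shorter Cdkn2c-201 in every library (points, blue without and orange with dox; bar, group mean). The mean of the longer mRNA falls to 2.55 CPM at 120 h without dox and to 4.33 in the dox-treated Cdh23 line, while the group means of the shorter one stay within 6.01 to 15.5.

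Cdkn1b also has a shorter (Cdkn1b-201, 2393 nt) and a longer mRNA (Cdkn1b-202, 4552 nt). The shorter one held 71.1% of the gene's counts at 48 h and 48.2% at 120 h without dox, and 67.4% and 28.1% with dox, so the longer form gained between these times. From 0 to 24 h the shorter one had gained, by 10.8 points without and 12.7 with dox, with no overlap (exact permutation p = 0.1 each). With dox against no dox in the MyoD1 line the shares did not overlap at 120 h (exact permutation p = 0.1), and at 48 h they did (p = 0.3). At 120 h the mean of the longer mRNA went from 30.8 to 66.3 CPM with dox and that of the shorter from 28.7 to 25.8. Relative to the shift of all genes in TPM, the gene's log2 ratio with dox at 120 h was 0.24, against 0.44 in CPM. It was 0.46 at 24 h, 0.29 at 48 h, 0.34 in the Cdh23 and 0.74 in the Mcam line (0.47, 0.31, 0.42 and 0.81 in CPM). At 48 h the shorter one held 58.3% without and 49.5% with dox in the Cdh23 line and 59% and 51.1% in the Mcam line, with no overlap in either (exact permutation p = 0.1 each). From 0 to 24 h without dox the class of long mRNAs had a median of -0.09 and that of short ones 0.24. The part of these class shifts, and of those between 48 and 120 h given above, in the shares was not tested.

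Among the pocket proteins in unfractionated cultures without dox, Rb1 rose after 24 h, while Rbl1 fell from 0 to 24 h and again from 48 to 120 h. Rb1 (ENSMUSG00000022105, GRCm38 chr14:73183673-73325822, minus strand) encodes the retinoblastoma protein. Its untreated values were 50.7, 45.5 and 46.6 CPM at 0 h and 52.8, 45.4 and 49.9 at 24 h, which overlapped. They were 132, 134 and 125 CPM at 48 h and 185, 201 and 227 at 120 h, each time above every earlier library (1.40 ± 0.07, adjusted p = 3.2e-10 and 0.67 ± 0.10, adjusted p = 0.000259). With dox Rb1 was at 63, 68.4 and 64.5 CPM at 0 h and 79.6, 71.9 and 79.8 at 24 h, above all untreated libraries (0.47 ± 0.06, adjusted p = 6.97e-05 and 0.62 ± 0.06, adjusted p = 4.22e-06). At 48 h it was below them, at 91, 77.6 and 64.9 CPM (-0.75 ± 0.10, adjusted p = 0.000111). In whole cultures at 120 h it was above them again, at 336, 285 and 280.2 CPM (0.54 ± 0.11, adjusted p = 0.00287). In the 120 h fractions, in another table, it was lower with dox by value. The means went from 120 to 94.1 CPM in the myoblast-enriched and from 131 to 90.0 CPM in the myotube-enriched fraction. Without the treated library with few long mRNAs the latter change was -0.16. The untreated fractions were near the 130 CPM of 48 h, so the rise from 48 to 120 h was seen in whole cultures only. The effects at 120 h and 48 h differed by 1.30 log2 units (adjusted p = 4.56e-05), and from 48 to 120 h with dox Rb1 rose by 1.95 ± 0.13 (adjusted p = 1.61e-08). Dox lowered Rb1 in the Cdh23 line from 102, 142 and 154 to 65.7, 69.1 and 70.8 CPM (-0.95 ± 0.15, adjusted p = 0.0011) and in the Mcam line from 84.3, 115 and 118 to 46.5, 53 and 64.6 (-0.92 ± 0.16, adjusted p = 0.00328), as in the MyoD1 line at 48 h. Rb1 missed the threshold in the fit of all groups with dox at 0 h, 24 h and 120 h (adjusted p = 0.326, 0.058 and 0.0616), while its falls at 48 h and the difference between 120 h and 48 h stayed called. The gene overlaps Rcbtb2 and Lpar6 on the other strand (means over all libraries of 27.4 and 10.8 CPM), and whether counting used strand is not stated.

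Rbl1 (ENSMUSG00000027641, GRCm38 chr2:157145893-157204534, minus strand) encodes p107, the pocket protein of cycling cells and itself known as an E2F target. The bases before its start, chr2:157204535-157204784 on the minus strand (RefSeq, GRCm38.p6), are shown because they alone among the 9 windows of 6 members held an E2F match. In capitals are the E-box letters CAGCTG, of the kind MyoD1 is known to bind, 183 to 178 bases before the start, and the E2F match TTTCGCGC, 18 to 11 bases before it.
Rbl1: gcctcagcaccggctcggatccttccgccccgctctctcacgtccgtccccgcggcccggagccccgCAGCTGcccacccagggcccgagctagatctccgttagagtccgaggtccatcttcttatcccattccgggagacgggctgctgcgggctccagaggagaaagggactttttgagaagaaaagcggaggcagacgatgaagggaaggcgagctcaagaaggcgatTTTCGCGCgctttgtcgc

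For E2F, 4 spellings were searched on both strands (TTTGGCGC, TTTCGCGC, TTTCCCGC and TTTGCCGC), and 1.86% of 32851 RefSeq windows of 250 bases held at least 1 of them. CAGCTG was in 13% of the windows, and TTTGAA, the core of the CHR element of DREAM-bound promoters, in 16%. The only other match among the members was TTTGAA on the minus strand before Rbl2, 201 to 196 bases before its start. A match is a description of the letters, not of binding.

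Without dox Rbl1 was at 70.5, 76.6 and 78.1 CPM at 0 h, 30.7, 24.6 and 25.9 at 24 h, 37.5, 40.9 and 38.9 at 48 h and 9.70, 13.6 and 14.3 at 120 h. The untreated level thus fell by the end to a mean of 12.5 CPM, the lowest of the 16 groups, with steps of -1.44 ± 0.08 (adjusted p = 1.17e-09), 0.54 ± 0.08 (adjusted p = 5.33e-05) and -1.62 ± 0.15 (adjusted p = 1.8e-05). The rise from 24 to 48 h was not called in the fit of all groups (adjusted p = 0.0694). With dox Rbl1 was at 71.1, 77.8 and 72.9 CPM at 0 h, 43.4, 41.6 and 43.6 at 24 h, 21.6, 20.8 and 17.8 at 48 h and 30.7, 27.7 and 25 at 120 h. The groups overlapped at 0 h, dox was higher at 24 h (0.64 ± 0.07, adjusted p = 1.04e-05), lower at 48 h (-0.97 ± 0.09, adjusted p = 4.45e-06) and higher again in whole cultures at 120 h (1.13 ± 0.17, adjusted p = 0.000622). The turn between 48 h and these whole cultures amounted to 2.11 log2 units (adjusted p = 2.1e-06). It was not seen in the 120 h fractions, in another table. There the means without and with dox were 26.8 and 24.1 CPM (myoblast-enriched) and 17.8 and 14.6 CPM (myotube-enriched). Without the treated library with few long mRNAs the latter change was 0.02. Rbl1 in the Cdh23 line went from 39.6, 44.9 and 47.5 to 21.4, 24.4 and 22.3 CPM with dox (-0.96 ± 0.10, adjusted p = 0.00013) and in the Mcam line from 33, 29.3 and 34.7 to 20.7, 20.3 and 21.8 (-0.59 ± 0.10, adjusted p = 0.00235).

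Rbl2 (ENSMUSG00000031666, GRCm38 chr8:91070057-91123844, plus strand) encodes p130, the pocket protein of resting cells and of the DREAM complex that represses cell cycle genes. In CPM it varied least of the 10 genes, 2.06-fold between the highest and the lowest group mean. Between the same groups its log2 ratio in TPM was 1.82, above the ratio of Cdkn1b (1.73) and that of Cdkn2c (1.25) between their own extreme groups. In CPM, in 14 of 15 neighbouring pairs of groups in the order of its means the libraries overlapped. It was higher with dox at 24 h (79.5, 71.1 and 71.7 CPM without, 94.8, 92.7 and 94.1 with, 0.32 ± 0.05, adjusted p = 0.000311). The same held in the Cdh23 line (119.8 to 130.1 CPM without, 146 to 160.0 with, 0.29 ± 0.09, adjusted p = 0.02) and the Mcam line (93.9 to 119.6 without, 145 to 152 with, 0.46 ± 0.11, adjusted p = 0.0116). In TPM its mean went with dox from 26.1 to 41.9 at 24 h, from 55.3 to 92.4 in the Cdh23 line and from 51.9 to 86.2 in the Mcam line, log2 ratios of 0.68, 0.74 and 0.73. Relative to the shift of all genes in TPM (0.31 at 24 h, and as given for Cdkn2c in the lines), these were 0.37, 0.32 and 0.45. Rbl2 thus moved with Cdkn1b and against Rb1 and Rbl1 in both lines. In the MyoD1 line the change was 0.15 ± 0.11 (adjusted p = 0.261) at 48 h and 0.26 ± 0.09 (adjusted p = 0.038) at 120 h. Without treated replicate 3 the change at 48 h was 0.26 and was called (adjusted p = 0.0221). The call at 120 h was lost with DESeq2 and without any 1 library except untreated replicate 3 (adjusted p = 0.0649 to 0.142), and that in the Cdh23 line without treated replicate 3 or untreated replicate 1 or 2 (adjusted p = 0.0531 to 0.0906). No dox call of Rbl2 remained in the fit of all groups (adjusted p = 0.407 at 24 h, 0.414 at 120 h, 0.31 in the Cdh23 and 0.16 in the Mcam line). Aktip overlaps Rbl2 on the other strand (87.0 CPM on average).

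Per length, the order of the pocket proteins turned over in differentiation. In TPM, which divide the counts by transcript length as well, the untreated means at 0 h were 50.5 for Rbl2, 34 for Rbl1 and 21.5 for Rb1. In whole cultures at 120 h they were 89 TPM for Rb1, 44.5 for Rbl2 and 5.63 for Rbl1. Among the CDK inhibitors, Cdkn1a was the most abundant per length at both times (102 and 2353 TPM), followed at 0 h by Cdkn1b (80.7) and at 120 h by Cdkn1c (90.5).

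The 3 D cyclins followed 3 different courses: Ccnd1 was a gene of growing cells, Ccnd2 peaked at 24 h and Ccnd3 was highest from 48 h on. Ccnd1 (ENSMUSG00000070348, GRCm38 chr7:144929931-144939925, minus strand) encodes cyclin D1, the D cyclin most directly tied to growth factor signals. Without dox it was at 306, 294 and 289 CPM at 0 h, 50, 44.6 and 47 at 24 h, 58.8, 56.5 and 64 at 48 h and 17.2, 17.9 and 12 at 120 h. Dox lowered it already in growth medium, to 133, 117 and 118 CPM (-1.26 ± 0.06, adjusted p = 4.56e-09), the largest change of the 10 genes there. At 24 h the treated libraries were at 16, 17.4 and 17.8 CPM (-1.49 ± 0.07, adjusted p = 3.85e-09), again with no overlap. At 48 h they were at 50.9, 53.4 and 54.5 CPM, close below the untreated ones, and this call (-0.19 ± 0.07, adjusted p = 0.0448) was lost with DESeq2 and without treated replicate 1 or 2 or untreated replicate 1 or 3 (adjusted p = 0.0759 to 0.194). At 120 h they were at 10.6, 10.6 and 9.12 CPM (-0.65 ± 0.18, adjusted p = 0.017, or adjusted p = 0.068 and 0.0777 without treated replicate 3 and untreated replicate 2). Ccnd1 in the Cdh23 line fell from 167, 131 and 95.5 to 21, 11.2 and 16.1 CPM (-3.03 ± 0.29, adjusted p = 8.48e-05) and in the Mcam line from 164, 132 and 100.2 to 80.5, 46.2 and 37.6 (-1.23 ± 0.30, adjusted p = 0.0118). The groups did not overlap in either line, and the difference between the lines of -1.78 log2 units (adjusted p = 0.0268) was lost without treated replicate 2 or 3 or untreated replicate 2 of the Cdh23 line, or treated replicate 1 or untreated replicate 2 of the Mcam line (adjusted p = 0.0539 to 0.0695).

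Ccnd2 (ENSMUSG00000000184, GRCm38 chr6:127125162-127152193, minus strand) encodes cyclin D2. Its untreated values were 38.7, 35.4 and 33.7 CPM at 0 h, 188, 187 and 167 at 24 h, 23.5, 22.3 and 23.2 at 48 h and 54.9, 67 and 76 at 120 h. The peak at 24 h stood above all other groups of the series, with a rise of 2.37 ± 0.07 (adjusted p = 3.19e-12) before it and a fall of -2.97 ± 0.07 (adjusted p = 2.61e-13) after it. The fall crosses the 2 tables and the batch label. At 48 h without dox the means were 79.5 and 65.4 CPM in the Cdh23 and Mcam lines, against 23.0 in the MyoD1 line. With dox the peak was lower, at 112, 107 and 117 CPM (-0.71 ± 0.06, adjusted p = 6.88e-07). At 48 h the groups overlapped (21.1, 22.6 and 23.2 CPM with dox, -0.06 ± 0.08, adjusted p = 0.492). At 120 h the treated libraries were at 14.4, 10.5 and 13.9 CPM, the lowest of the 16 groups (-2.36 ± 0.17, adjusted p = 7.24e-06). The late rise of the untreated cultures (1.54 ± 0.13, adjusted p = 1.07e-05) was therefore not seen with dox, where the change from 48 to 120 h was -0.77 ± 0.13 (adjusted p = 0.00015), and the dox effects at the 2 times differed by -2.30 log2 units (adjusted p = 8.12e-07). In the Cdh23 line dox lowered Ccnd2 from 98.3, 58.9 and 81.3 to 46.1, 36.2 and 28.4 CPM (-1.11 ± 0.23, adjusted p = 0.00396). In the Mcam line the groups overlapped, at 90.2, 67.8 and 38.3 without and 79.2, 59.6 and 48.4 CPM with dox (-0.03 ± 0.31, adjusted p = 0.941). The difference between the lines missed the threshold (-1.07 ± 0.43, adjusted p = 0.143) and passed it with the replicate number as a block (-1.12, adjusted p = 0.0136).

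Ccnd3 (ENSMUSG00000034165, GRCm38 chr17:47505051-47599691, plus strand) encodes cyclin D3. Without dox it fell from 101, 96.1 and 99.1 CPM at 0 h to 53.6, 53 and 49.1 at 24 h (-0.89 ± 0.06, adjusted p = 7.48e-09). It was at 396, 389 and 386 CPM at 48 h (2.92 ± 0.06, adjusted p = 7.49e-14) and at 432, 351 and 244 at 120 h, where the spread was wide. Dox raised it at the early times and lowered it at the late ones. The treated libraries were above the untreated ones at 0 h (129, 131 and 136 CPM, 0.43 ± 0.05, adjusted p = 2.54e-05) and at 24 h (94.5, 95.6 and 96 CPM, 0.85 ± 0.05, adjusted p = 6.02e-08). They were below them at 48 h (319.8, 333 and 343 CPM, -0.25 ± 0.06, adjusted p = 0.00493) and at 120 h (172, 214 and 199 CPM, -0.83 ± 0.18, adjusted p = 0.00534). With dox in the Cdh23 line Ccnd3 went from 233, 287 and 351 to 164, 154 and 158 CPM (-0.87 ± 0.15, adjusted p = 0.00157), and in the Mcam line from 179, 216 and 231 to 147, 142 and 148 (-0.48 ± 0.11, adjusted p = 0.00815). Bysl overlaps Ccnd3 on the other strand (57.9 CPM on average).

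Per length, the leading D cyclin without dox was Ccnd1 at 0 h, Ccnd2 at 24 h and Ccnd3 at 48 h. At 0 h without dox the means were 153 TPM for Ccnd1, 101 for Ccnd3 and 13.7 for Ccnd2. At 24 h they were 50.2 TPM for Ccnd2, 42.7 for Ccnd3 and 20.1 for Ccnd1. At 48 h they were 322 TPM for Ccnd3, 25.9 for Ccnd1 and 6.35 for Ccnd2. With dox in growth medium Ccnd3 already stood above Ccnd1, at 153 against 71.1 TPM.

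Beside these changes, the makeup of the cultures changed too, and in bulk RNA fewer cells of a type and less RNA per cell cannot be told apart. For the counts of listed genes that follow, the shares of all tested genes called without dox were 37.3% higher and 37% lower from 0 to 24 h, 38.4% higher and 38.4% lower from 24 to 48 h and 33% higher and 34.1% lower from 48 to 120 h. With dox they were 19.1% higher and 18.7% lower at 0 h, 31.1% higher and 31.7% lower at 24 h and 21.4% higher and 23.7% lower at 120 h. Those at 48 h in the 3 lines are given with the member counts. In growth medium myotube markers were close to none (summed 1.85 to 2.50 CPM without and 3.73 to 4.34 with dox), and they were still low at 24 h (11.9 to 13.3 and 11.5 to 13.3). The 5 markers of proliferating myoblasts summed to 2035 to 2056 CPM without and 1779 to 1835 with dox at 0 h, with 4 called lower. At 24 h they summed to 555 to 607 and 559.7 to 575, with 3 lower and 1 higher. Of 4 reserve cell markers (Pax7, Cd34, Spry1 and Myf5, the last also in the proliferation list), 2 were lower with dox at 0 h (441 to 469 and 317 to 354 CPM). At 24 h 3 were lower and Pax7 higher (341 to 349.7 and 122 to 138). In the Cdh23 line 3 of them were lower (445 to 478 and 174 to 196 CPM) and in the Mcam line 2 (237 to 361 and 263 to 298). In the MyoD1 line 2 were lower and 2 higher at 48 h (312 to 324 and 297 to 326 CPM), and 2 lower and 1 higher at 120 h (192 to 209.9 and 179 to 186). At 48 h dox lowered all 9 myotube markers in the MyoD1 line (summed 13651 to 14961 CPM without, 5460 to 5567 with) and all 9 in the Cdh23 line (5454 to 10055 without, 38.4 to 132 with). In the Mcam line it lowered 8 of the 9 (4036 to 10200 without, 523 to 1709 with). The 5 proliferation markers fell as well in all 3 lines, from sums of 888 to 902 to 266 to 289 CPM in the MyoD1 line, from 592 to 890.4 to 20.5 to 37.5 in the Cdh23 line and from 551 to 685 to 60.2 to 112 in the Mcam line. Low Cdkn1a, Cdkn1c, Cdkn2c, Rb1, Rbl1 and Ccnd3 with dox at 48 h thus came in cultures where both kinds of marker were low. At 120 h in whole cultures 6 of the 9 myotube markers were lower and 1, Myh3, higher with dox (17455 to 20566 and 11933 to 13828 CPM), while 4 of the 5 proliferation markers were higher (191 to 223 and 363 to 435 CPM). In lists of 4 and 5 genes the shares over all genes amount to 1 or 2 genes in each direction, so counts of 1 or 2 reserve cell or proliferation markers say little. The part of these cell types in the changes of the 10 genes was not tested.

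The differences between lines in the dox effect were tested directly. Between the Cdh23 and the Mcam line, 4 of the 10 genes differed (10.6% of all genes did): Cdkn1a, Cdkn1c, Cdkn2c and Ccnd1, all more strongly lowered in the Cdh23 line. Against the MyoD1 line at 48 h, whose libraries are in another table, 6 differed in the Cdh23 line (35.7%): Cdkn1a (-3.20), Cdkn1c (-3.25), Cdkn2c (-0.60), Ccnd1 (-2.83), Ccnd2 (-1.03) and Ccnd3 (-0.60). In the Mcam line 2 did (6.41%), Cdkn1a (-0.79) and Cdkn1c (-1.36), and both calls were lost without replicate 2 of the dox-treated Mcam group or without replicate 2 or 3 of either MyoD1-line group at 48 h (adjusted p = 0.0681 to 0.0834), that of Cdkn1c also without replicate 2 of the untreated Mcam group or replicate 1 of the untreated MyoD1 group (adjusted p = 0.0627 and 0.0633). In the fit of all groups the differences of Cdkn2c, Ccnd2 and Ccnd3 between the Cdh23 and MyoD1 lines (adjusted p = 0.0636, 0.0507 and 0.0671) and both differences between the Mcam and MyoD1 lines (0.418 and 0.0592) were lost. DESeq2 called Cdkn1b and Ccnd1 as well between the latter lines (adjusted p = 0.0283 and 0.0174). With edgeR no member differed between the untreated Cdh23 and Mcam lines (0.409% of genes did). Cdkn1c came nearest, at -0.59 ± 0.18 (adjusted p = 0.304), and was called with the replicate number as a block (-0.57, adjusted p = 0.0353). Within the MyoD1 line, the dox effects at 24 h and 0 h differed for 9 genes (34.1%), all but Rb1 (none of them in the fit of all groups), and those at 120 h and 48 h for 7 (34.1%), all but Cdkn1b, Rbl2 and Ccnd1. The difference of Ccnd1 (-0.45, adjusted p = 0.0682) passed without a filter (0.0363) and without untreated replicate 3 of 120 h (0.00215). Of the 7, Cdkn1a and Ccnd3 were not called in the fit of all groups (adjusted p = 0.455 and 0.0941). The difference of Ccnd1 between 24 h and 0 h was lost also with DESeq2 (adjusted p = 0.0535) and with RLE scaling (0.0683).

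In the fractions of 120 h edgeR, fitted with its filter on the groups compared, called no member in any comparison, and the alternative fits called up to 4. With dox none of the 10 was called in the myoblast-enriched fraction (4.34% of genes were, with 3174 of 14249 at an unadjusted p under 0.05). There 3 members had an unadjusted p under 0.05 and DESeq2 called 2, Cdkn1a and Cdkn2c (of all genes it called 1582 of 14021). In the myotube-enriched fraction none was called (0%, with 79 of 14113 genes at an unadjusted p under 0.05 in edgeR and 2 called by DESeq2). Cdkn1a was at 789, 1137 and 906 CPM in the untreated and 651 and 584 in the treated myoblast-enriched libraries (-0.60 ± 0.20, adjusted p = 0.13), with no overlap. It passed with DESeq2 (adjusted p = 0.0308), without a filter (0.0352) and with the replicate number as a block (0.00637). In the myotube-enriched fraction it was at 1161, 1131 and 1808 CPM without and 1313, 2002 and 472 with dox, where the lowest and the highest of the 6 libraries are both treated ones. Cdkn2c was lower with dox in the myoblast-enriched fraction by value (60.4, 39.7 and 49.2 against 28.1 and 34.3 CPM, -0.66 ± 0.21, adjusted p = 0.115), also with no overlap. It passed with DESeq2 (adjusted p = 0.0468), without a filter (0.0108), in the fit of all groups (0.0326) and with the block (0.0102). Between myotube- and myoblast-enriched libraries, the same fits called none without dox (0.592% of genes). There 2 members had an unadjusted p under 0.05 (16.1% of all tested genes did), and DESeq2 called none of the 10 (764 of all genes). With dox none was called either (0%, 182 genes at an unadjusted p under 0.05, 7 called by DESeq2). The nearest was Ccnd1 without dox, at 71.6, 28.3 and 43.3 CPM in myotube- and 110.2, 69.3 and 81.5 in myoblast-enriched libraries (-0.85 ± 0.33, adjusted p = 0.26), which passed with the replicate number as a block (-0.92, adjusted p = 0.0284) and in the fit of all groups (adjusted p = 0.0233), where Cdkn2c passed too (adjusted p = 0.00363). The dox effects of the 2 fractions differed for none of the 10 genes (0%, 217 genes at an unadjusted p under 0.05, 2 called by DESeq2), and leaving out the treated myotube-enriched library with few long mRNAs left these counts at 0. Myotube markers were high in both fractions (6373 to 10440 CPM in untreated myoblast- and 15535 to 24370 in untreated myotube-enriched libraries).

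Of 20 S-phase genes known as E2F targets, which the pocket proteins repress, all 20 fell from 0 to 24 h without dox, 14 rose and 1 fell from 24 to 48 h, and all 20 fell from 48 to 120 h (medians -0.98, 0.29 and -1.92, against -0.05 to 0.05 over all genes tested in every comparison). Tk1, the thymidine kinase of S phase, led these steps, with -3.27 ± 0.06 (adjusted p = 6.36e-14), 2.26 ± 0.06 (adjusted p = 1.37e-12) and -3.98 ± 0.24 (adjusted p = 1.82e-06). With dox 16 of the 20 fell at 0 h (median -0.35), 13 fell and 2 rose at 24 h (-0.28), all 20 fell at 48 h (-0.94), and at 120 h 9 rose and 3 fell (0.42). All 20 fell with dox in the Cdh23 line (median -2.19) and in the Mcam line (-1.58). Ccna2, the cyclin of S phase, changed by -1.82 ± 0.07 (adjusted p = 2.82e-08) in the MyoD1 line at 48 h and by -2.83 ± 0.21 (adjusted p = 0.000164) in the Mcam line, and Rrm2, a subunit of ribonucleotide reductase, by -5.31 ± 0.27 (adjusted p = 7.37e-06) in the Cdh23 line. In the dox-treated 48 h cultures Cdkn1a, Cdkn1c and Cdkn2c were lower, Cdkn1b was higher and the S-phase genes were lower. Whether these changes are linked was not tested. At 120 h the dox effect on 17 of the 20 was higher than at 48 h (16.8% of all genes, median of the difference 1.34), as it was on Rbl1.

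Of 22 tested genes among 24 other members of the cyclin, CDK, RB and E2F pathway, 1 rose and 10 fell with dox at 0 h, 4 and 11 at 24 h, 2 and 16 at 48 h, and 6 and 6 at 120 h, the last close to the shares over all genes. In the Cdh23 line 2 rose and 16 fell, and in the Mcam line 1 and 16. Cdk6, a partner of the D cyclins, was the most lowered at 0 h (-0.55 ± 0.06, adjusted p = 1.89e-05) and at 24 h (-1.07 ± 0.09, adjusted p = 4.53e-07), beside the fall of Ccnd1 at the same times. Cdkn2d, another INK4 gene, was the most raised at 24 h (1.22 ± 0.08, adjusted p = 5.69e-08). E2f2, an activating E2F, fell most in the Cdh23 line (-5.61 ± 0.37, adjusted p = 1.74e-05) and the Mcam line (-3.41 ± 0.33, adjusted p = 0.000353), where Tfdp2, a dimer partner of E2Fs, was higher (0.52 ± 0.09, adjusted p = 0.00147 and 0.69 ± 0.14, adjusted p = 0.00582). Of 8 genes of the DREAM and MuvB complexes, none rose and 5 fell with dox at 48 h in the MyoD1 line, and none rose and 6 fell in each of the other lines. Mybl2, the MuvB partner of cycling cells, was the lowest there (-3.45 ± 0.16, adjusted p = 6.34e-06 in the Cdh23 and -2.73 ± 0.18, adjusted p = 0.000138 in the Mcam line).

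**Figure D4:**
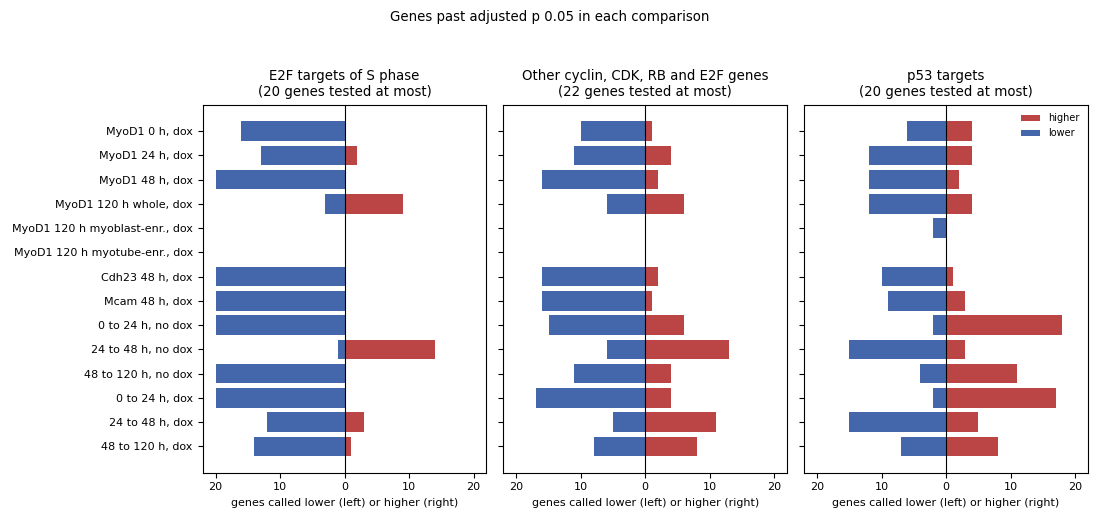
Number of genes of 3 lists (E2F targets of S phase, other genes of the cyclin, CDK, RB and E2F pathway, and p53 targets) called lower (bars to the left) or higher (to the right) in each comparison with dox or over time. All 20 E2F targets fell with dox at 48 h in the 3 lines, while 9 rose and 3 fell with dox in whole cultures at 120 h.

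The p53 targets followed Cdkn1a over part of its course. Of 20 p53 targets other than Cdkn1a, 18 rose and 2 fell from 0 to 24 h without dox (median 1.40), when Cdkn1a rose by 2.52, led by Gdf15, a stress-induced cytokine (5.79 ± 0.14, adjusted p = 4.61e-13). From 24 to 48 h 3 rose and 15 fell, while Cdkn1a went on rising by 1.33, and from 48 to 120 h 11 rose and 4 fell. With dox 4 rose and 6 fell at 0 h, where the share that rose was close to that over all genes, 4 and 12 at 24 h, 2 and 12 at 48 h, and 4 and 12 at 120 h, where Gdf15 changed by -7.36 ± 0.60 (adjusted p = 1.7e-05). In the Cdh23 line 1 rose and 10 fell (median -0.78), and in the Mcam line 3 and 9.

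Over the 16 group means, the genes closest in course to each member were found among 9279 genes by Pearson's r of log2 CPM. These values describe the 16 points only, which share lines, tables and times. Cdkn1c was closest to Fgfr4 (r = 0.98), Islr (0.974) and Adamtsl2 (0.968), and Ccnd3 to Slc2a6 (0.97), Dok7 (0.97) and Cd81 (0.969). Cdkn2c was closest to Sapcd2 (0.969), Tk1 (0.955) and Tedc1 (0.955), and Rbl1 to Zranb3 (0.957), Zgrf1 (0.95) and Dnmt1 (0.949). Cdkn1a was closest to Arhgef2 (0.95) and Rb1 to Acsl4 (0.949), while Ccnd1 was closest to Fam171a1 (0.953). The likeness was lower for Ccnd2 (Akna, 0.935), Cdkn1b (Bbs9, 0.909) and Rbl2 (Il17rd, 0.902). Between members, r was highest for Cdkn1c with Ccnd3 (0.931) and Cdkn2c with Ccnd1 (0.813), and lowest for Cdkn1a with Cdkn1b (-0.749).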

How the data were processed

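PolyA RNA of 47 libraries in 16 groups was sequenced, and the authors aligned and quantified the paired reads with nf-core/rnaseq 3.18.0 and salmon against mm10. The annotation and the strand setting are not given in the sources used here. The deposited values are salmon's estimated counts per transcript in 3 tables of 109617 transcripts (30.97 to 34.36% of values not whole), with 0 columns outside the samples used. Of the transcripts 98.72% were in GENCODE vM21, which gave the GRCm38 positions, and 45143 of 45706 gene IDs matched a symbol.

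Counts were summed per gene and rounded. Each comparison was fitted on its own groups with edgeR 4.0.16 (quasi-likelihood test, filterByExpr, TMM, Benjamini-Hochberg adjustment over all genes tested) in R 4.3.3; differences of dox effects were interaction terms over 4 groups. CPM and TPM were computed from the same counts. Ratios of group means in TPM, set against the median shift of all genes from CPM, were added after seeing the data. Totals of 15066338 to 50950674 counts per library limit precision for genes near 1 CPM. DESeq2 1.42.0, RLE scaling, no filter, all groups in 1 fit, a replicate block and leaving out each library were the alternatives. Shares of transcripts were compared by two-sided exact permutation tests. The fits were tested on simulated counts. Libraries of 1 group differed by more than counting noise (chi-square per gene 3.04 to 410.47 over 46 pairs), so none was taken as deposited more than once.

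Same-numbered libraries deviated together, with every correlation above 0.1, for dox in the Cdh23 line (0.251, 0.101 and 0.262) and the Mcam line (0.434, 0.309 and 0.499), for Cdh23 against Mcam without dox (0.494, 0.209 and 0.461) and for myotube- against myoblast-enriched without dox (0.470, 0.169 and 0.136). The numbers come from the sample titles.

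The 10 members and all gene lists were chosen with earlier results of these data known. All members were described. From each list the genes with the highest and the lowest called change of a comparison were eligible to be named, and for likeness the 3 genes closest to each member out of those averaging 5 CPM or more with a log2 range of 1 or more. The windows of Cdkn1a, Cdkn2c and Rbl1 were chosen for printing after their values were seen. Promoter sequences are RefSeq's (GRCm38.p6), matched by symbol for 6 of the 10 genes. Python 3.11.15, pandas 2.3.3 and matplotlib 3.10.9 were used.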

Additional observations from a re-analysis of the deposited data

Results flagged for a closer look

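All results here were singled out because the dox effect differed between times or lines by a test of the difference itself (edgeR interaction term, adjusted p under 0.05); values are differences of log2 fold changes. No group held 4 to 10 libraries, so no single library was tested as an outlier.

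Between 24 h and 0 h of the MyoD1 line, the dox effect was higher at 24 h for Cdkn1c by 0.95, Rbl1 by 0.61, Cdkn1b by 0.46, Cdkn2c by 0.42, Ccnd3 by 0.37 and Rbl2 by 0.24. It was lower at 24 h for Ccnd2 (-0.65), Cdkn1a (-0.38) and Ccnd1 (-0.28). All 9 rested on groups of 1 table, and none was called in the fit of all groups. That of Ccnd1 was lost with DESeq2 (adjusted p = 0.0535) and RLE scaling (0.0683). Those of Rbl2 and Ccnd1 were also lost without single libraries (adjusted p = 0.0571 to 0.0745 for Rbl2, without replicate 2 of the untreated 0 h or 24 h group, and 0.0515 to 0.0839 for Ccnd1, without replicate 1 of either treated group or untreated replicate 3 of 0 h).

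Between 120 h whole cultures and 48 h, the effect was higher at 120 h for Rbl1 (2.11), Rb1 (1.30), Cdkn2c (1.15) and Cdkn1c (1.11). It was lower at 120 h for Ccnd2 (-2.30), Ccnd3 (-0.57, a call lost without any 1 of 10 of the 12 libraries, at adjusted p = 0.0627 to 0.113) and Cdkn1a (-0.44). In the fit of all groups those of Ccnd3 and Cdkn1a were not called (adjusted p = 0.0941 and 0.455). Rbl1 turned from lower with dox at 48 h to higher at 120 h, as did 9 of the 20 S-phase genes and 4 of the 5 proliferation markers.

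Between lines at 48 h, the effect in the Cdh23 line was lower than in the Mcam line for Cdkn1a (-2.41), Cdkn1c (-1.89), Ccnd1 (-1.78) and Cdkn2c (-0.85). It was lower than in the MyoD1 line for Cdkn1c (-3.25), Cdkn1a (-3.20), Ccnd1 (-2.83), Ccnd2 (-1.03), Ccnd3 (-0.60) and Cdkn2c (-0.60). In the Mcam line it was lower than in the MyoD1 line for Cdkn1c (-1.36) and Cdkn1a (-0.79). In the fit of all groups Cdkn2c, Ccnd2 and Ccnd3 did not pass between the Cdh23 and MyoD1 lines (adjusted p = 0.0636, 0.0507 and 0.0671), nor did Cdkn1a and Cdkn1c between the Mcam and MyoD1 lines (0.418 and 0.0592). Comparisons with the MyoD1 line set effects from separately quantified tables against each other.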

How the results depend on the processing

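Of 230 results (10 genes in 23 comparisons), none changed sign past the threshold under any alternative: with DESeq2 221 stayed on their side of the threshold, with RLE scaling 229, without a filter 220, in 1 fit of all groups 182, with the replicate block 217, and over the 1710 fits without 1 library 1640. The count of members called moved by over 1.5 times as follows. In 1 fit of all groups it went to 1 (0 h dox), 5 (24 h dox), 5 (48 h dox), 4 (120 h dox), 1 (myoblast-enriched dox), 2 (myotube- against myoblast-enriched without dox), 0 (24 h minus 0 h), 3 (Cdh23 minus MyoD1 line) and 0 (Mcam minus MyoD1 line). With DESeq2 it was 2 for dox in the myoblast-enriched fraction and 4 for Mcam minus MyoD1 line, and without a filter 2 for the former. The cause was not tested. Over the fits without 1 library the count ranged from 4 to 5 for dox at 0 h, 10 to 10 at 24 h, 6 to 9 at 48 h, 6 to 8 at 120 h, 0 to 1 and 0 to 0 in the myoblast- and myotube-enriched fractions, 9 to 10 in the Cdh23 and 9 to 9 in the Mcam line. Over time without dox it was 9 to 9, 8 to 8 and 8 to 10, and with dox 9 to 9, 7 to 9 and 9 to 9. Between fractions and between untreated lines it was 0 to 0. For the differences of dox effects it was 8 to 9 (24 h minus 0 h), 6 to 8 (120 h minus 48 h), 0 to 0 (fractions), 3 to 4 (Cdh23 minus Mcam), 6 to 6 (Cdh23 minus MyoD1) and 0 to 3 (Mcam minus MyoD1).

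With the replicate block the count was 4 for dox in the myoblast-enriched fraction, where only 2 numbers are shared (r of 0.515 and 0.387) and the pairing is a hint from the data. These were Cdkn1a, Cdkn2c, Rb1 (-0.39, adjusted p = 0.0253) and Ccnd2 (-0.69, adjusted p = 0.0047). The count was 1 for myotube- against myoblast-enriched without dox (Ccnd1) and 1 for Cdh23 against Mcam without dox (Cdkn1c). Of the comparisons in which the numbers paired the libraries, the block changed otherwise only the call of Ccnd2 between the Cdh23 and Mcam effects.

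Calls lost under at least 3 kinds of alternative were Cdkn2c with dox at 0 h and from 24 to 48 h with dox, Ccnd1 with dox at 48 h, Cdkn1c and Rbl2 with dox at 120 h, and the differences of the dox effects of Ccnd1 (24 h minus 0 h) and Ccnd3 (120 h minus 48 h). For Cdkn2c from 24 to 48 h with dox (adjusted p = 0.0367), these were no filter (0.0594), 1 fit of all groups (0.411), the block (0.0599) and leaving out any 1 treated library of 24 h or treated replicate 2 of 48 h (0.0628 to 0.152). Calls gained in whole cultures, beside those given with the results, were Cdkn1b and Ccnd3 from 48 to 120 h without dox (-0.27 and -0.36, adjusted p = 0.0216 and 0.0291 without untreated replicate 1 of 120 h, against -0.21 and -0.17 with it) and Rbl2 from 24 to 48 h with dox (adjusted p = 0.0254 without a filter, 0.0424 with the block and 0.0018 without treated replicate 1 of 48 h). Between the Mcam and MyoD1 effects Ccnd1 was gained also without a filter (0.00488) and without treated replicate 1 or untreated replicate 3 of the Mcam line (0.00704 and 0.0225), and Cdkn1b without untreated replicate 1 of that line (0.0362). Between the Cdh23 and Mcam effects Ccnd2 was gained with the block (0.0136).

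The number of all genes called moved by over 1.5 times in the following cases. In 1 fit of all groups it went from 5122 to 829 for dox at 0 h, 8848 to 4782 at 24 h, 7845 to 4803 at 48 h, 9476 to 5666 from 0 to 24 h with dox, 4922 to 668 for 24 h minus 0 h, 5019 to 3086 for 120 h minus 48 h, 1548 to 1020 for Cdh23 minus Mcam, 5298 to 3154 for Cdh23 minus MyoD1 and 929 to 79 for Mcam minus MyoD1 (1521 with DESeq2). For dox in the myoblast-enriched fraction it was 619, and 1582 with DESeq2, 1978 without a filter and 4051 with the block. For myotube- against myoblast-enriched without dox it was 83, and 764 with DESeq2, 461 without a filter, 1637 in 1 fit and 676 with the block. For Cdh23 against Mcam without dox it was 56, and 304 with DESeq2, 132 without a filter and 607 with the block, and it was higher in 1 fit too. Counts of 0 went to 2 with DESeq2, 1 without a filter and 4 in 1 fit for dox in the myotube-enriched fraction, to 7 with DESeq2 and 243 in 1 fit for myotube- against myoblast-enriched with dox, and to 2 with each for the difference between fractions. In TPM in place of CPM, the log2 ratio between the groups with the highest and lowest CPM went from 2.48 to 1.25 for Cdkn2c, from 1.04 to 1.82 for Rbl2, from 1.26 to 1.73 for Cdkn1b, from 5.86 to 5.32 for Cdkn1a, from 4.87 to 4.52 for Ccnd1 and from 3.81 to 3.32 for Ccnd2.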
